A study of Saccharomyces cerevisiae with 58 samples.

Results

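The 50 genes described here encode factors that assemble the small (40S) ribosomal subunit of budding yeast, most of them components of the small subunit processome. They were chosen by name, as the probe sets annotated to these gene symbols, a rule that uses no measured value. The list was however drawn up with earlier results of these data known. All 50 genes had a probe set on the array, 1 each, among 5498 probe sets that carry 1 Saccharomyces cerevisiae gene symbol and stand for 5449 genes. By role they fall into the UTP-A subcomplex (7 genes), the UTP-B subcomplex (6), the UTP-C subcomplex (3), the proteins of the U3 box C/D small nucleolar ribonucleoprotein (4), the Mpp10 complex (3), enzymes and their cofactors (11) and other assembly factors (16).

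The series followed mRNA levels on 58 Affymetrix arrays in 2 strains, a wild type and its mutant in RPB6, a shared subunit of the nuclear RNA polymerases. Per the methods both strains are MATalpha with the markers ura3-52, his3delta200, lys2delta201 and ade2. The probe set of HIS3 read 10.87 in the untreated wild type, above the background of 5.10 given below, and 11.68 in the mutant, which carries HIS3. How it came to this level with his3delta200 was not tested. The a-cell markers given below also read above 5.10, so that background does not show a gene to be present. In the mutant the chromosomal RPB6 is replaced by HIS3 and a centromeric LEU2 plasmid carries an RPB6 with 1 amino acid substituted, with which RNA polymerase II recruits its Rpb4/7 subunits to transcripts less well. Cells grew in rich medium (YPD) to mid-log phase. One culture per strain received 0.3 mM H2O2 and was sampled before and at 5, 10, 15, 25, 35 and 45 min. Another received 0.1% MMS (methyl methanesulfonate, an alkylating agent) and was sampled at 0, 20, 40, 80, 100, 120, 140 and 180 min. Loss of mRNA was followed from 0 min, then at 5, 10, 20, 30, 40 and 50 min after 1,10-phenanthroline, a chelator that stops transcription, either without H2O2 (reference course) or with 0.3 mM H2O2 added 7 min earlier. Untreated cells are represented by the first array of the H2O2, the MMS and the reference decay course, which gives 3 per strain, and 52 of the 54 conditions have 1 array. Each course is 1 culture, so p-values measure the spread of its arrays about a smooth curve or line and not the spread between cultures.

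The small subunit processome gathers on the nascent precursor of ribosomal RNA, held there by base pairing of the U3 small nucleolar RNA. Within it the 5′ parts of the precursor are folded, modified and cut to release the precursor of the 18S RNA, and later factors carry the young 40S particle to the cytoplasm. In yeast the genes of these factors belong to the ribosome biogenesis regulon, which is transcribed in step with growth and is known to be turned down in many stresses.

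Levels are log2 values of the robust multi-array average (RMA), which gives every array the same overall distribution, so each change is relative to the average mRNA of that array. The 3 measurement sets (14 H2O2, 16 MMS and 28 decay arrays) were normalized apart. All 50 genes lay above the background read on probe sets of Schizosaccharomyces pombe on the same chip, whose 95th percentile was 5.10, and the lowest mean level among them was 7.91 (DHR2). The alpha-cell gene STE3 read 12.41 (wild type) and 11.55 (mutant), and the 5 a-cell markers read between 6.38 and 8.40, which ranks none of them, since levels of different probe sets cannot be set against each other. The probe set of RPO26, the other name of RPB6, read 13.58 and 12.98, and does not tell the alleles apart. In the reference decay course of the mutant the 10 and 20 min arrays stood out of order, with 31.9% of the change from first to last array over all genes at 10 min and 9.16% at 20 min. In the MMS courses the 3′ probe set of ACT1 exceeded its 5′ probe set by 0.28 (wild type) and 0.34 (mutant) log2 units at 0 min and by 0.70 to 1.68 on every later array, against 0.33 to 0.70 in all other courses. Per the methods the mutant grows more slowly than the wild type, and the part of growth rate in the strain differences was not tested.

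In untreated cells every gene of the 50 had a lower mean in the mutant, but no difference passed the test. The median turned when the wild type MMS array was left out, which also left the sets unequal between the strains. DHR2, an RNA helicase, had the largest mean difference. It read 9.44, 10.88 and 9.26 in the wild type (H2O2, MMS and decay sets in that order) and 9.02, 10.85 and 7.72 in the mutant, so the groups overlapped while the mutant was lower within each set. The difference of DHR2 was -0.66 (SE 0.80). RRP5, an RNA-binding factor needed for both subunits, read 11.90, 12.90 and 12.25 against 11.87, 13.01 and 12.11 and lay near no difference (-0.02). The mean difference was below 0 for 50 of 50 genes, with a median of -0.26 against -0.02 over all probe sets. Without the wild type MMS array the median was 0.06 with 19 genes below 0 (0.11 over all probe sets), without the mutant decay array -0.01 with 27, without the mutant H2O2 array -0.09 with 38, without the wild type H2O2 array -0.43 with 50 and without the mutant MMS array -0.61 with 50. Such an omission leaves the sets unequal between the strains. At 0 min the median level of the 50 was 11.77 and 11.66 in the MMS set (wild type, mutant), against 10.71 and 10.58 in the H2O2 set. The medians after an omission therefore mix offsets between sets with the strain difference and do not measure its stability. With all arrays, 0 of the 50 passed (limma, Benjamini-Hochberg adjusted p under 0.05), where 0.0182% of all probe sets were called lower. An unadjusted p under 0.05 was found for 0 of the 50 and for 222 of all 5498 probe sets. No member had every mutant array below every wild type array, a pattern that 3.71% of all genes showed. That pattern sets arrays of different sets against each other, so it mixes set offsets with the strain difference. With the set as a block, as the 0 min arrays of one set deviated together, the fit still called 0 of the 50 (132 over all probe sets). In it 20 of the 50 had an unadjusted p under 0.05, against 1424 of all 5498 probe sets. UTP13 had the smallest adjusted p in that fit, 0.080 by limma. Within sets the median difference was -0.18 in the H2O2 set (45 of 50 genes lower), -0.11 in the MMS set (38 lower) and -0.47 in the decay set (49 lower). The mutant was lower in all 3 sets for 34 genes (68%), against 28.8% of all genes.

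H2O2 lowered the mRNA of every one of the 50 genes in the wild type. All 50 passed the test as lower, against 28.1% of all probe sets (limma moderated F on a spline in time). The median of the largest falls was 1.17 log2 units, a level 2.24 times lower than at 0 min. The largest change came at 15 min for 35 genes and at 25 min for 15. The median change was -0.04 at 5 min, when 28 genes were below their start, then -0.67 at 10 min, -1.13 at 15 min, -1.01 at 25 min, -0.73 at 35 min and -0.37 at 45 min. By the last array the median gene had 32.4% of its fall left.

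**Figure D1:**
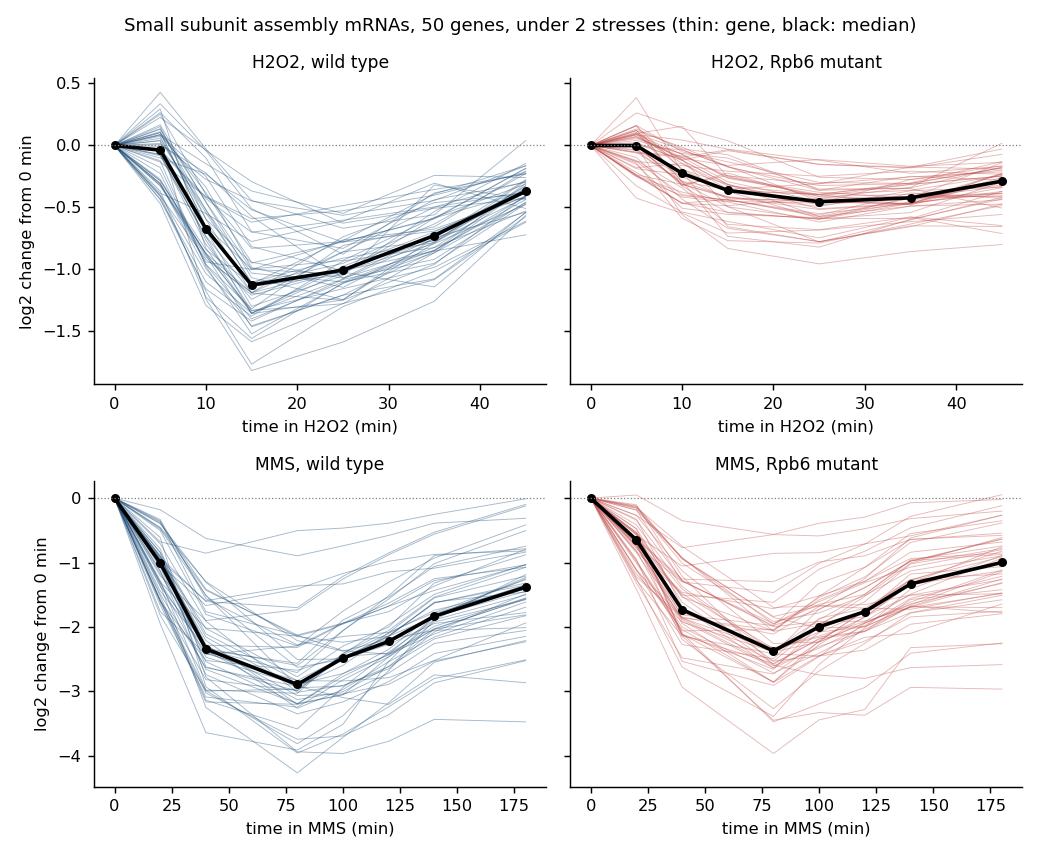
Log2 change from 0 min (vertical axis) of the 50 genes against time in H2O2 (top) or MMS (bottom), in the wild type (left) and the Rpb6 mutant (right), with 1 array per point. Thin lines are genes and the black line is their median, which reached -1.13 at 15 min of H2O2 in the wild type against -0.45 at 25 min in the mutant, and -2.89 against -2.37 at 80 min of MMS.

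In the UTP-A subcomplex, the first to bind the 5′ external transcribed spacer, all 7 genes fell in the wild type, with a median of -1.19. UTP5 read 11.11 at 0 min, 10.80 at 5, 10.11 at 10, 9.65 at 15, 9.90 at 25, 10.03 at 35 and 10.56 at 45 min. Its largest change was -1.46 (limma adjusted p = 0.000611). UTP10, the large HEAT-repeat subunit, had its lowest level at 25 min. It read 10.48 at 0 min and 10.91 at 5 min, then 10.45, 10.04, 9.81, 9.92 and 10.52, so that it ended near its starting level, and its largest change was -0.67 (limma adjusted p = 0.00673).

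The 6 genes of the UTP-B subcomplex, a scaffold of propeller proteins that joins after UTP-A, all fell, with largest changes between -1.40 (UTP18) and -1.10 (UTP21). UTP18, which recruits the nuclear exosome's helicase, read 10.87, 10.64, 9.91, 9.47, 9.77, 9.92 and 10.40 along the course (limma adjusted p = 0.000957). UTP21 read 10.28, 10.41, 9.75, 9.24, 9.17, 9.45 and 9.93 (limma adjusted p = 0.00279). It turned at 25 min, 1 array later than UTP18.

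UTP-C, which is found with casein kinase 2, held genes with large and small falls. RRP36 read 9.53, 9.16, 8.31, 7.97, 8.42, 8.68 and 9.09, a largest change of -1.56 (limma adjusted p = 0.000490). UTP22 read 10.38, 10.34, 9.96, 9.76, 9.89, 10.02 and 10.15, a change of -0.62 (limma adjusted p = 0.00723). RRP7, which binds UTP22, changed by -0.78.

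Among the proteins of the U3 particle, NOP56 and NOP58, the paired core proteins shared by all box C/D particles, had the smallest changes of the 50 genes, -0.55 and -0.56. NOP56 read 12.53, 12.62, 12.38, 12.16, 11.98, 12.29 and 12.27. NOP1, the fibrillarin methyltransferase of the same core, changed by -0.78. RRP9, the only one of the 4 that is specific to U3, read 10.65, 10.37, 9.81, 9.53, 9.89, 9.98 and 10.24, a change of -1.12 (limma adjusted p = 0.000683). Its difference from the 3 shared core proteins was not tested.

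The Mpp10 complex is needed for U3 to pair with the precursor. IMP3 read 11.34, 11.03, 10.47, 10.01, 10.19, 10.36 and 10.73, a largest change of -1.34 (limma adjusted p = 0.000301). MPP10 read 9.20, 9.29, 8.95, 8.39, 8.19, 8.35 and 8.90 and turned at 25 min, with -1.01. IMP4, which pairs with IMP3 in guiding U3, was at -1.12.

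The 11 enzymes and cofactors held both the largest change and some of the smallest. DHR2 read 9.44 at 0 min and 9.48 at 5 min, then 8.20, 7.63, 7.86, 8.19 and 8.88, and its change of -1.82 was the largest of the 50. Other helicases, DBP8 (-1.58), FAL1 (-1.35) and ROK1 (-1.07), also fell. At the other end stood FCF1, the PIN-domain nuclease of the early cleavages, which read 11.82, 11.69, 11.41, 11.23, 11.30, 11.42 and 11.61 (-0.59, limma adjusted p = 0.00257), and EMG1, the methyltransferase that modifies the 18S RNA (-0.70).

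Of the other factors all 16 fell. BFR2, which enters the particle with LCP5 and ENP2, read 11.04, 10.62, 9.86, 9.27, 9.73, 10.02 and 10.42, a change of -1.77. LCP5 changed by -1.42 and ENP2 by -1.24. RRP5 read 11.90, 12.13, 11.87, 11.61, 11.28, 11.40 and 11.47, a fall that came late (-0.63 at 25 min) and of which 68.3% was left at 45 min, the highest share among the 50.

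In the rpb6 mutant fewer of the 50 genes were called in H2O2, while a direct test of the strain difference, given below, passed for 0 of the 50. The median of the largest changes was -0.48, a level 1.39 times lower than at 0 min. Of the 50 genes 11 passed the test as lower, against 10.3% of all probe sets. An unadjusted p under 0.05 was found for 23 of the 50, against 2134 of all 5498 probe sets in either direction. The largest change came at 25 min for 34 genes, at 35 min for 12, at 15 min for 3 and at 45 min for 1. The median gene had 65.2% of its fall left at 45 min.

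The 11 genes that passed were UTP5, UTP15, UTP6, NOP1, IMP3, DBP8, NOC4, KRR1, LCP5, BFR2 and FCF2, spread over all role groups but UTP-C. UTP5 read 10.82 at 0 min, then 10.73, 10.39, 10.15, 10.05, 10.17 and 10.17, and so did not regain what it had lost (-0.78, limma adjusted p = 0.0201). BFR2 read 10.91, 10.77, 10.32, 10.14, 10.12, 10.28 and 10.42 (-0.79). NOP1 had the smallest adjusted p of the mutant course, 0.00310 by limma, with a change of -0.50 reached only at 45 min. Among genes that did not pass, DHR2 had the largest change, with levels of 9.02, 9.02, 8.46, 8.19, 8.07, 8.17 and 8.22 (-0.96, limma adjusted p = 0.0901). RRP36 was at -0.58, UTP22 at -0.17 and NOP56 at -0.18.

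The count of 11 in the mutant was not stable. It was 23 without the 5 min arrays, 1 without those at 10 min, 6 without those at 15 min, and 2 without those at 25, 35 or 45 min, while 2.80% to 10.8% of all probe sets were called lower. In the wild type the same omissions left between 41 and 50 genes called. When the spread was taken from 1 strain's arrays alone, the counts were close, with 42 genes in the wild type (17.8% of all probe sets lower) and 41 in the mutant (14.6%).

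Between the strains, the largest change was smaller in the mutant for 50 of 50 genes, with a median ratio of mutant to wild type of 0.424, while it was smaller in the mutant for 78.2% of all genes. The largest difference between the courses belonged to ENP1, a factor of nuclear and cytoplasmic pre-40S particles. ENP1 read 10.26, 9.99, 9.38, 8.80, 9.05, 9.41 and 9.54 in the wild type, against 9.68, 9.83, 9.48, 9.36, 9.10, 9.25 and 9.27 for the mutant, so the mutant started below the wild type, stood above it from 10 to 25 min and ended below it again. The changes differed by 1.15 at 15 min. The difference itself passed the test for 0 of the 50 genes, where 1.24% of all probe sets passed (limma moderated F on the strain by spline terms). At an unadjusted p under 0.05 stood 23 of the 50, against 1069 of all 5498 probe sets. The smallest adjusted p was 0.0623 by limma, shared by RCL1, the cyclase-like partner of the GTPase BMS1 (difference 0.94), and KRR1, a KH-domain factor (0.62). Leaving out the 5 min arrays brought 9 genes past the threshold, with 4.35% of all probe sets.

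**Figure D2:**
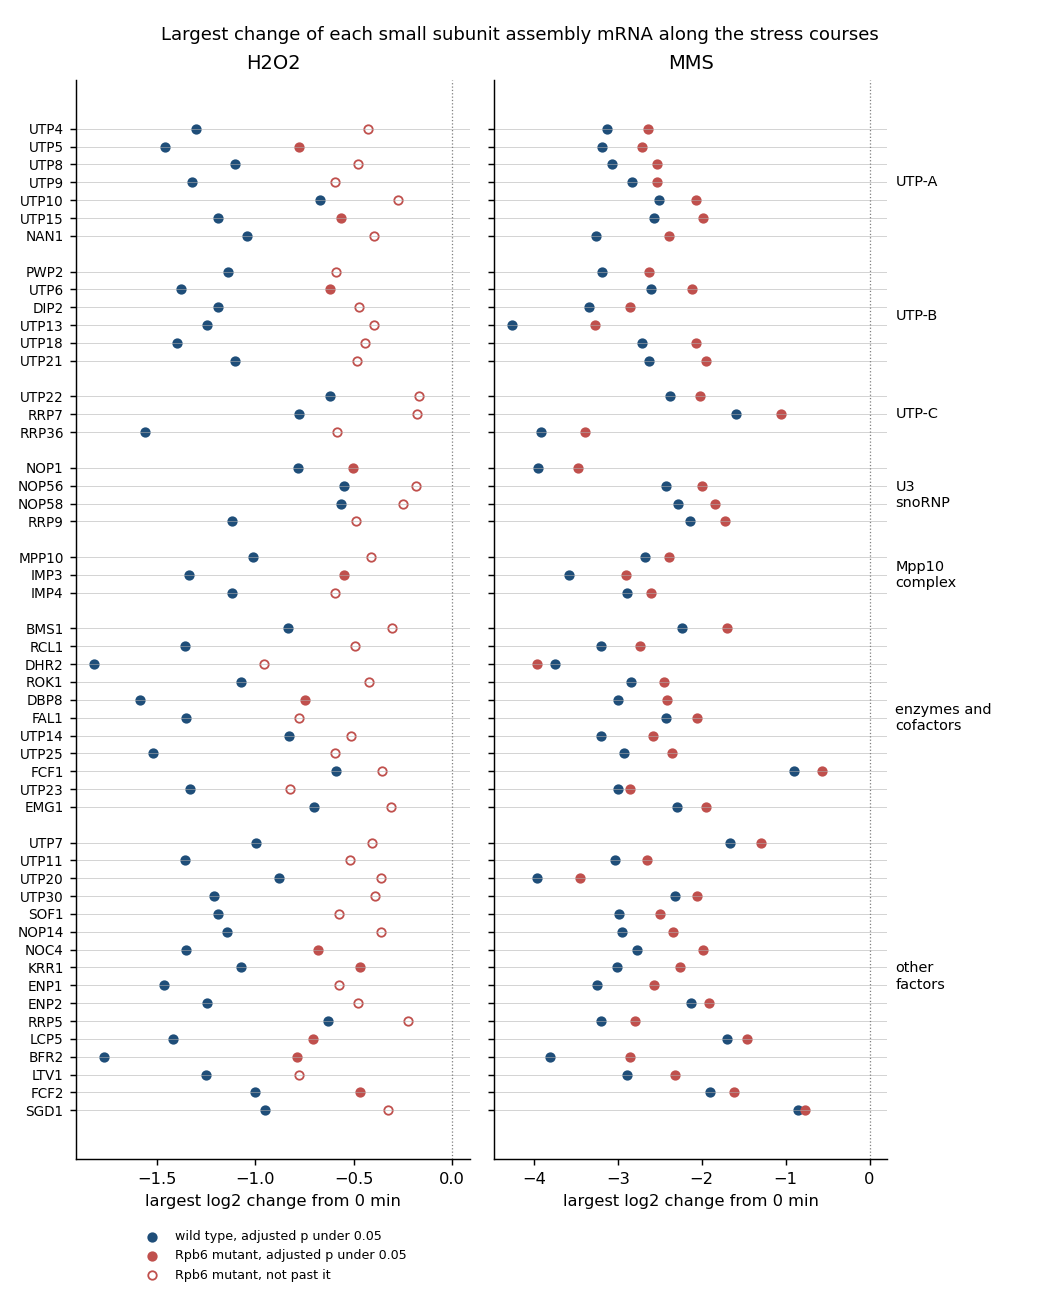
Largest log2 change from 0 min (horizontal axis) of each of the 50 genes, by role group, in H2O2 (left) and MMS (right). Filled points passed limma's test in that strain (adjusted p under 0.05) and open points did not. In H2O2 every mutant point lies to the right of its wild type point, and in MMS DHR2 alone reverses that order.

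MMS also lowered the mRNA of all 50 genes, in both strains. All 50 passed as lower in the wild type, where 41.7% of all probe sets were called lower, and all 50 in the mutant, where 39.3% were (limma moderated F). The median of the largest changes was -2.89 in the wild type, 7.43 times below the start, and -2.37 in the mutant, 5.18 times below it. The lowest level came at 80 min for 38 genes of the wild type, and for 44 of the mutant. In the wild type the median change ran from -1.01 at 20 min through -2.34 at 40 min and -2.89 at 80 min to -1.38 at 180 min, and in the mutant it was -0.65 at 20 min, -1.73 at 40 min and -2.37 at 80 min. The 3′ to 5′ signal of ACT1 moved with the MMS time points as given above. It also differed between the strains, with 0.70 in the wild type against 1.64 in the mutant at 20 min, and 1.21 against 1.00 at 40 min. Its part in these changes and in the strain differences was not tested. The untreated level of the 50 genes was also higher in this set, with a median 1.25 (wild type) and 1.14 (mutant) above the array's median against 0.78 and 0.64 in the H2O2 set, which was normalized apart.

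UTP13, a UTP-B subunit, fell most in the wild type, from 11.91 at 0 min to 10.55 at 20, 8.66 at 40 and 7.64 at 80 min, and it then read 8.19, 8.73, 9.36 and 9.70. That was a change of -4.27 (limma adjusted p = 1.60e-06). In the mutant it read 11.59, 10.89, 9.40, 8.32, 8.91, 9.33, 9.80 and 10.01 (-3.27). UTP20, a large HEAT-repeat factor, followed at -3.97 and -3.45, and NOP1, whose fall in H2O2 was among the smaller ones, at -3.96 and -3.47. RRP36 had the largest change of the 50 at 20 min in the wild type, from 10.80 to 8.85, and went on to 7.15, 6.88, 7.28, 8.26, 8.96 and 9.57.

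The genes returned to different extents after their lowest level. The median share of the fall left at 180 min was 48.6% (wild type) and 45.1% (mutant). LCP5 read 11.85 at 0 min, 10.15 at 80 min and 11.75 at 180 min in the wild type, against 11.76, 10.30 and 11.82 for the mutant, so that both strains ended near their start. RRP5 stayed low, with 12.90 at 0 min, 9.70 at 120 min and 10.03 at 180 min in the wild type, against 13.01, 10.21 and 10.43 for the mutant, which left 89.5% and 92.4% of the fall. UTP20 (87.6% and 86.0%) and UTP22 (84.7% and 84.3%) also stayed low. SGD1 (-0.85 and -0.77) and FCF1 (-0.90 and -0.56) had the smallest changes of the 50 in both strains, yet each passed the test (limma adjusted p between 0.000676 and 0.0108).

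DHR2 was the exception in the strain comparison. It read 10.88 at 0 min and 7.14 at 80 min in the wild type (-3.74), against 10.85 and 6.89 for the mutant (-3.96), while the largest change was smaller in the mutant for the other 49 genes, with a median ratio of mutant to wild type of 0.825 over the 50. Over all genes 60.1% had the smaller change in the mutant. The difference between the strains' courses passed for 0 of the 50 genes, against 2.73% of all probe sets. An unadjusted p under 0.05 was found for 7 of the 50, against 972 of all 5498 probe sets. BFR2 came nearest. It read 11.79, 10.21, 8.80, 7.97, 8.41, 9.11, 9.90 and 10.60 in the wild type, against 11.76, 10.66, 9.72, 8.90, 9.49, 9.92, 10.43 and 11.01 for the mutant, and its changes differed by 1.11 at 100 min (limma adjusted p = 0.0757).

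Genes with a larger change in the wild type tended to have a larger one in the mutant. Across the 50 genes, which were read on the same arrays and are not independent replicates, the largest changes of the strains correlated with Pearson's r = 0.826 in H2O2 and 0.955 in MMS. The largest changes of the wild type in H2O2 and in MMS correlated with r = 0.41 across the 50 genes. LCP5 and NOP1 changed places in the order between the stresses, since LCP5 fell by more than the median in H2O2 (-1.42) and by less in MMS (-1.70), and NOP1 the reverse (-0.78 and -3.96).

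After phenanthroline the mRNAs of these genes were lost faster than the average mRNA in the wild type. Per the methods phenanthroline also inhibits RNA polymerases I and III. The cDNA was primed with poly(T), so loss of the poly(A) tail and loss of the mRNA cannot be told apart. Some genes induced by H2O2 rose against the average mRNA in this course, with slopes of 0.110 (OYE3), 0.105 (CTT1) and 0.0505 (SRX1) per min. In the mutant reference course these slopes were 0.0399, 0.0844 and 0.0139. GPX2, also induced by H2O2, fell in both strains (-0.0335 and -0.0255). Whether transcription stopped fully in either strain was not tested, nor was its part in the slopes. The slope of log2 level on time was below 0 for 50 of 50 genes and passed for all of them, against 32.9% of all probe sets called lower (limma moderated t), with a median of -0.0652 per min (median SE 0.00354). The median change was -0.16 at 5 min, -0.41 at 10, -0.98 at 20, -1.89 at 30, -2.60 at 40 and -3.09 at 50 min.

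SOF1, a propeller protein of the particle's core, had the steepest slope. It read 10.93 at 0 min, 10.52 at 5, 10.14 at 10, 9.14 at 20, 7.99 at 30, 7.33 at 40 and 7.06 at 50 min (-0.0835 per min, SE 0.00426). ROK1, a DEAD-box helicase, held longer and then fell, with 10.98, 10.84, 10.76, 10.24, 9.32, 8.48 and 7.66 (-0.0686). RRP7 was lost least and read 10.69, 10.52, 10.42, 10.20, 10.13, 10.19 and 10.26, a slope of -0.00859 (limma adjusted p = 0.0132). Its partners in UTP-C had slopes of -0.0771 (RRP36) and -0.0382 (UTP22). FCF1 (-0.0325), FCF2 (-0.0351) and MPP10 (-0.0372) were the next least steep after RRP7.

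**Figure D3:**
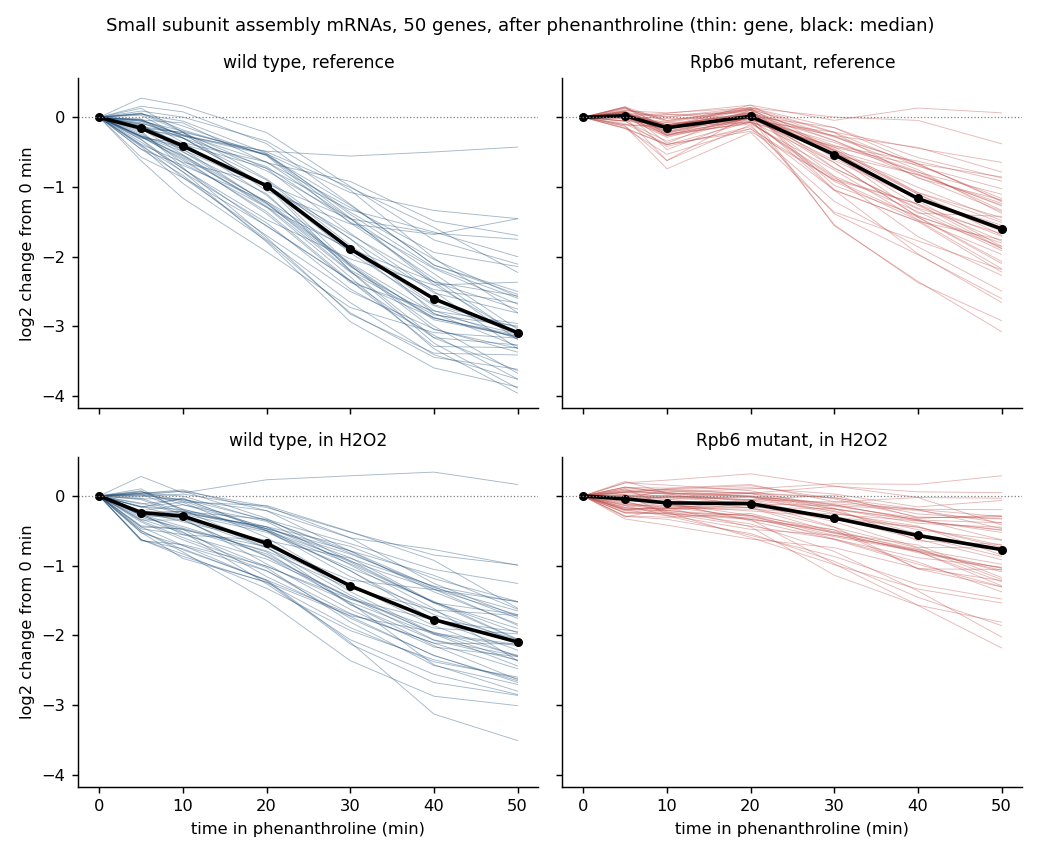
Log2 change from 0 min (vertical axis) of the 50 genes against time in phenanthroline, without H2O2 (top) and with H2O2 added 7 min before (bottom), in the wild type (left) and the Rpb6 mutant (right), with 1 array per point. Thin lines are genes and the black line is their median, which ended at -3.09 and -1.60 in the reference courses and at -2.09 and -0.77 in H2O2, and the line nearest 0 in the wild type reference course is RRP7.

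In the mutant reference course the slope was below 0 for 49 of 50 genes and all 49 passed as lower, against 36.6% of all probe sets, with a median of -0.0326 per min (median SE 0.00415). The exception was RRP7, with 10.44, 10.47, 10.50, 10.62, 10.40, 10.58 and 10.51 and a slope of 0.00111. Up to 20 min the genes hardly moved, with a median change of 0.02 at 5 min, -0.15 at 10 min and 0.02 at 20 min, and they then fell to -0.53, -1.16 and -1.60 at 30, 40 and 50 min. Restricted to the first 30 min, the fit called 0 of the 50 genes, and over that range 0 of all probe sets passed.

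For 49 of 50 genes the reference slope, relative to the average mRNA of each array, was less steep in the mutant. A strain difference in the decay of all mRNAs together was not measured, and its part in these slopes was not tested. The difference between the reference slopes passed for 41 of the 50, all with the flatter slope in the mutant. Of all probe sets 14.4% were called in that direction (limma moderated t). The median difference of the 50 was 0.0322 per min (median SE 0.00686). When the mutant's 2 arrays out of order were left out the difference passed for 43 genes (15.4% of all probe sets in that direction). With those arrays exchanged it passed for 42 (16.8%), the 41 among them both times. Over the first 30 min it passed for 42 (8.73%), 38 of them among the 41. LTV1, an export factor of the pre-40S particle, had the smallest adjusted p. It read 10.40, 10.33, 10.11, 9.70, 8.90, 8.24 and 7.72 in the wild type, against 10.02, 10.02, 10.00, 10.00, 9.75, 9.59 and 9.23 for the mutant, and its slopes of -0.0567 and -0.0150 differed by 0.0417 (SE 0.00399, limma adjusted p = 7.07e-05).

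KRR1 was nearly flat in the mutant, where it read 10.82, 10.92, 10.89, 10.96, 10.83, 10.78 and 10.44, against 11.17, 11.01, 10.95, 10.67, 10.16, 9.59 and 8.94 in the wild type. The slopes were -0.00670 and -0.0438 and differed by 0.0371 (limma adjusted p = 0.000323). ROK1 had the largest difference, 0.0462, with mutant levels of 10.56, 10.59, 10.43, 10.62, 10.27, 9.89 and 9.35. UTP23, a PIN-domain protein that acts with the snR30 particle (0.0429), RRP36 (0.0396) and UTP11 (0.0353) were the other genes of lowest adjusted p.

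The difference passed for 5 of 7 genes of UTP-A, 6 of 6 of UTP-B, 1 of 3 of UTP-C, 4 of 4 U3 proteins, 3 of 3 of the Mpp10 complex, 9 of 11 enzymes and 13 of 16 other factors. The 9 genes that did not pass were UTP9, UTP15, UTP22, RRP7, RCL1, EMG1, UTP30, SOF1 and FCF2. UTP22 was the one gene whose fitted slope was not flatter in the mutant. It read 10.49, 10.62, 10.27, 9.43, 8.96, 8.81 and 9.03 in the wild type, against 10.44, 10.53, 10.07, 10.54, 9.40, 8.95 and 8.69 for the mutant, with slopes of -0.0382 and -0.0387. RRP7 (limma adjusted p = 0.0525) and UTP9 (0.0565) lay just beyond the threshold. For SOF1 the difference was 0.0202 with an SE of 0.0112, and for UTP15 it was 0.0145 with an SE of 0.0113.

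**Figure D4:**
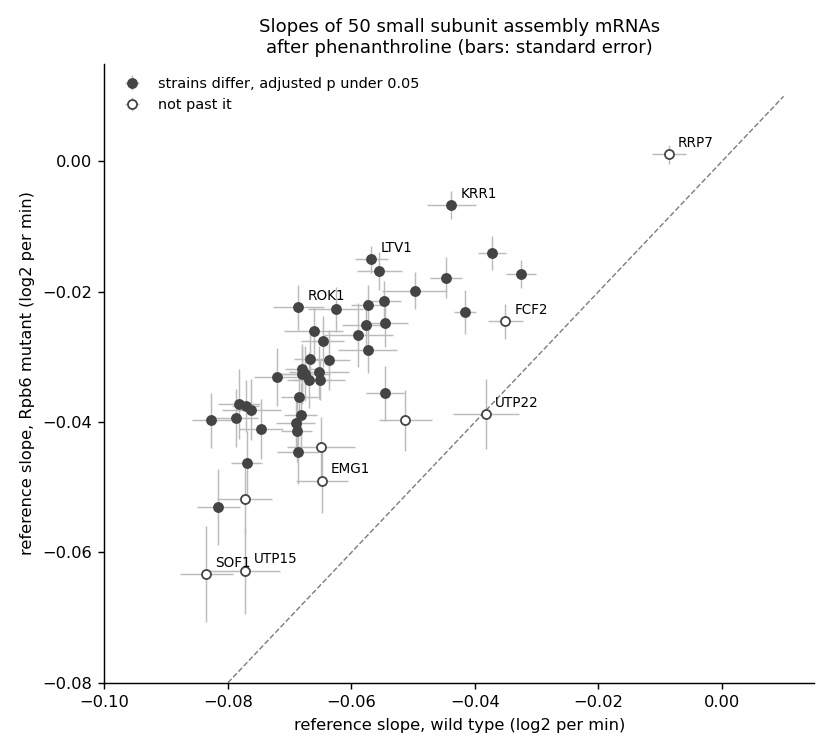
Slope of log2 level on time after phenanthroline in the reference courses, wild type on the horizontal and Rpb6 mutant on the vertical axis (log2 per min), for the 50 genes, with standard errors as bars and the line of equal slopes dashed. Filled points are the 41 genes whose slopes differed (limma, adjusted p under 0.05) and all of them lie above the line, while UTP22 lies on it.

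Before phenanthroline was added, 7 min of H2O2 had already lowered most of these mRNAs against the reference arrays, with 1 array per strain and condition and no test. The median difference was -0.46 in the wild type, where 49 of 50 genes were below 0, and -0.19 in the mutant, where 47 were, against -0.07 and -0.06 over all genes. RRP36 had the largest difference in both strains, from 9.75 to 8.73 in the wild type (-1.02) and from 9.08 to 8.45 in the mutant (-0.63). UTP10 was the one gene above 0 in the wild type (0.04), and UTP10, UTP7 and FAL1 were above 0 in the mutant.

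With H2O2 the wild type lost these mRNAs more slowly than without it, relative to the average mRNA. The slope was less steep in H2O2 for 50 of 50 genes, with a median difference of 0.0195 per min (median SE 0.00501), and the difference passed for 30 of the 50, against 3.71% of all probe sets called in that direction (limma moderated t). The median slope in H2O2 was -0.0423. ROK1 had the largest difference, 0.0303. Its levels in H2O2 were 10.58, 10.54, 10.54, 10.23, 9.76, 9.24 and 8.72, which started below and ended above those of the reference course. RRP36 had the smallest adjusted p (difference 0.0278, SE 0.00313, limma adjusted p = 0.000276), with 8.73, 8.47, 8.29, 7.93, 7.17, 6.66 and 6.38 in H2O2 against 9.75, 9.43, 8.96, 8.23, 7.29, 6.62 and 5.99 in the reference course.

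By role, all 6 genes of UTP-B passed, with 5 of 7 in UTP-A, 2 of 3 in the Mpp10 complex, 10 of 16 other factors, 6 of 11 enzymes and 1 of 3 in UTP-C, while 0 of the 4 U3 proteins did, whose differences lay between 0.0101 (NOP1) and 0.0169 (NOP56). UTP22 (0.00332, SE 0.00754) and EMG1 (0.00488, SE 0.00600) had the smallest differences of the 50. The count of 30 fell to 11 without the 5 min arrays, to 17 without those at 10 min, to 14 without those at 40 min and to 10 over the first 30 min only, while the share of all probe sets fell to 1.16%, 2.11%, 1.13% and 0.964%. It shares the wild type reference arrays with the strain comparison of the reference slopes.

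In the mutant the slope was also less steep in H2O2 for 50 of 50 genes, with a median difference of 0.0163 per min (median SE 0.00587) and a median slope in H2O2 of -0.0157. The difference passed for 2 of the 50, FAL1 (0.0231, limma adjusted p = 0.0222) and FCF2 (0.0169, limma adjusted p = 0.0469). Of all probe sets 0.691% were called in that direction. An unadjusted p under 0.05 was found for 38 of the 50, against 1151 of all 5498 probe sets in either direction. The count of 2 moved with the arrays out of order. It was 28 with both of them left out (4.84% of all probe sets), 32 with them exchanged (6.97%) and 31 without the 20 min arrays of both courses (4.87%), while it was 0 or 1 when any other time point was left out. LCP5 had the largest difference, 0.0259 (SE 0.00693), with mutant levels of 10.00, 10.00, 9.72, 10.00, 8.96, 8.51 and 7.78 in the reference course and 9.60, 9.31, 9.29, 9.35, 9.06, 8.81 and 8.53 in H2O2.

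**Figure D5:**
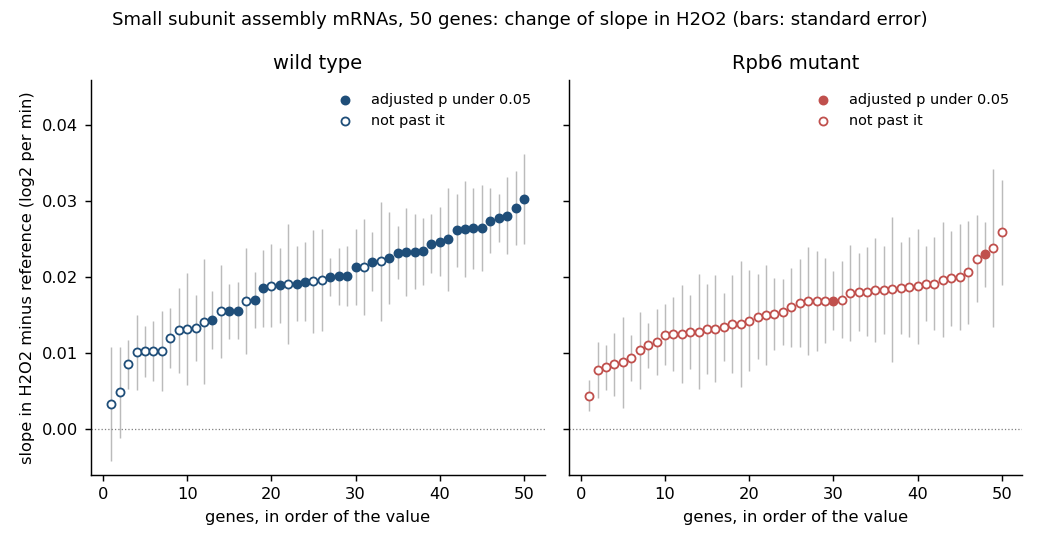
Slope in H2O2 minus slope in the reference course (vertical axis, log2 per min) for the 50 genes in order of the value, in the wild type (left) and the Rpb6 mutant (right), with standard errors as bars. All 50 values lie above 0 in both strains, and the filled points, past limma's threshold, number 30 (wild type) and 2 (mutant).

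The change of slope in H2O2 itself was not found to differ between the strains. The difference passed for 0 of the 50 genes, where 0.637% of all probe sets passed. An unadjusted p under 0.05 was found for 1 of the 50 (LTV1), against 384 of all 5498 probe sets. The difference was below 0 for 40 of the 50, with a median of -0.00331 per min and a median SE of 0.00818. The median was -0.0101 without the 50 min arrays (46 below 0) and -0.0164 over the first 30 min (49 below 0), and 0 genes passed either time. DHR2 had the largest value, -0.0133 (SE 0.00853).

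Other genes of ribosome assembly were described by the same counts of calls. Of 64 factors of the large (60S) subunit, 64 were called lower in H2O2 in the wild type (median -1.07) and 11 in the mutant (-0.47), against 28.1% and 10.3% of all probe sets, and 54 had a reference slope called flatter in the mutant (median 0.0304), against 14.4%. Of 44 further factors of 40S assembly with a probe set, 39 were called lower in H2O2 in the wild type (median -0.96) and 8 in the mutant (-0.42), and 31 had a slope called flatter. Of 8 genes of RNA polymerase I subunits, 8 and 1 were called lower in H2O2 and 4 had a slope called flatter. The mutant calls in H2O2 come from the same joint fit whose count for the 50 genes was not stable. The direct test of the H2O2 strain difference passed for 1 of the 64, 0 of the 44 and 0 of the 8, against 1.24% of all probe sets (limma moderated F). Of 52 probe sets of small subunit ribosomal proteins, 3 were called lower in H2O2 in the wild type (median -0.09), but 50 were in MMS (median -0.97), against 41.7% of all probe sets, and 36 had a reference slope called flatter in the mutant (median 0.00999). For the large subunit's proteins these counts were 7, 74 and 63 of 76.

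Regulators of the ribosome biogenesis regulon moved in different directions. TOD6, a repressor that binds its promoters, fell by 2.23 in H2O2 and by 5.05 in MMS in the wild type (limma adjusted p = 0.000529 and 4.54e-08). DOT6, its paralog, was at -0.20 in H2O2 (limma adjusted p = 0.186) and rose by 0.43 in MMS (0.000192). STB3, another repressor, rose by 0.50 in H2O2 (limma adjusted p = 0.000320) and was at 0.42 in MMS (0.0706). SFP1, an activator, fell by 0.28 in H2O2 (limma adjusted p = 0.0348) and was at -0.28 in MMS (0.0552). IFH1 (-0.845 in H2O2 and -2.19 in MMS), FHL1 (-0.67 and -1.35) and SCH9 (-0.448 and -0.40) were in the same list and all fell in the wild type. Each passed in both stresses (limma adjusted p under 0.05). Whether IFH1, FHL1 or SCH9 acts at promoters of the ribosome biogenesis regulon was not tested, so their falls are not given as changes in its direct regulators.

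No 2 of the 50 genes were neighbours on a chromosome in the RefSeq gene table of assembly R64, and 5 stood next to another assembly gene. UTP9 and RIX1, a 60S factor, changed by -1.32 and -1.33 in H2O2 and by -2.83 and -3.65 in MMS in the wild type. LCP5 and NSA2, another 60S factor, differed more, with -1.42 and -0.94 in H2O2 and -1.70 and -3.50 in MMS.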

How the data were processed

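Arrays (Affymetrix Yeast 2.0, poly(T)-primed cDNA) measured mRNA in 58 samples of the wild type and the rpb6 mutant. The deposited values are log2 levels per probe set that the authors made with RMA. The level distributions showed that RMA had been run in 3 sets of 14, 16 and 28 arrays, so changes and slopes use values of 1 set only. The untreated comparison without a block, its omissions and its count of non-overlapping arrays set levels of different sets beside each other. Another deposited table holds the authors' own fold changes and scaled decay ratios and was not used. Gene symbols came from the platform annotation, and 5498 probe sets with 1 Saccharomyces cerevisiae symbol were tested.

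Tests used limma 3.58.1 in R 4.3.3 with Benjamini-Hochberg adjustment over all 5498 probe sets and a threshold of 0.05. Stress courses were fitted as natural splines in time with 3 degrees of freedom, jointly for both strains, and tested with the moderated F. Decay courses were fitted as straight lines, and slopes and their differences tested with the moderated t. Untreated strains were compared over 3 arrays each without a block, and same-set arrays deviated together (r = 0.666, 0.821 and 0.738), so the blocked fit is printed beside it. The number of arrays limits the precision, with a median residual SD of the 50 genes of 0.143 to 0.222 (log2) in the course fits. The fits without a block were run on simulated data with independent noise, no offsets between sets and no arrays out of order. That simulation does not show how they behave where such features are present.

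Values in every array were given for the gene with the largest and with the smallest H2O2 change of the wild type in each role group. Further genes were named for passing a strain comparison (up to 6 per test), for missing a test that most of the 50 passed, for moving against the others, for the largest size in a test, or, after their values were seen, as examples of a role or of the recovery. The 50 genes, the other lists and the tests were chosen with earlier results of these data known. Alternatives covered array centring, a filter on dim probe sets, the variance prior, the spline, the arrays sharing a spread, each time point or replicate left out, the time range and the order of 2 arrays. A planned search of promoters for motifs was not run, and promoter sequences were not analysed here.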

Additional observations from a re-analysis of the deposited data

Results flagged for a closer look

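After phenanthroline without H2O2 the slope, relative to the average mRNA, differed between the strains in a direct test (limma, adjusted p under 0.05). It did so for 41 of the 50 genes, each with the flatter slope in the rpb6 mutant. The mutant minus wild type difference of the 6 genes with the lowest adjusted p was 0.0417 log2 per min for LTV1, 0.0371 for KRR1, 0.0353 for UTP11, 0.0396 for RRP36, 0.0462 for ROK1 and 0.0429 for UTP23. With the 10 and 20 min mutant arrays out of order left out, the count was 43 genes. That count does not give the part these arrays had in single slopes. No group had 4 or more arrays of 1 condition, so no array was tested as an outlier within a group.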

How the results depend on the processing

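Of 157 recomputed counts of called genes, 130 stayed within 1.5 times the value reported and 27 did not. Of 2393 values recomputed for called genes, 2249 kept their direction and their side of the threshold, 143 kept the direction alone, and 1 turned its direction, the mutant reference slope of KRR1 over the first 30 min (0.000126). The cause was not tested.

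The count of genes called in the mutant's H2O2 course (11) was 7 with a spline of 2 degrees of freedom and 41 with that strain's arrays alone, where the wild type's course (50) gave 42. The H2O2 strain comparison (0) gave 2 with arrays centred on their median and 5 with an intensity trend in the prior. Over the first 30 min the mutant reference slope (49) gave 0, the wild type's slope change (30) 10 and the mutant's (2) 0, and fewer arrays entered those fits. The mutant's slope change was 8 with all 28 decay arrays sharing 1 spread, 28 without the 10 and 20 min arrays of its reference course and 32 with them exchanged.

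With 1 time point or replicate left out, the counts ranged from 41 to 50 (H2O2, wild type), 1 to 23 (H2O2, mutant), 0 to 9 (H2O2, strain comparison), 49 to 50 (MMS, either strain), 0 to 0 (MMS, strain comparison), 49 to 50 and 48 to 49 (reference slopes of wild type and mutant), 33 to 46 (their difference), 11 to 30 and 0 to 31 (slope change of wild type and mutant), 0 to 0 (its strain difference) and 0 to 0 (untreated). With the replicate block the untreated comparison called 0 of the 50 genes, as without it, and 132 of all probe sets. One array per time point limits every count here.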
